A study of Mus musculus with 12 samples.

Results

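The 3 TGF-beta ligand genes of mouse visceral fat moved in opposite directions on a high-fat diet. Tgfb1 RNA rose by 1.4-fold on average over the genotypes, while Tgfb2 fell to 0.668 and Tgfb3 to 0.771 of the control-diet level. The Tgfb3 call lay close to the threshold and held in 3 of the 12 fits that left out 1 library. Tgfb1 therefore made up a larger share of the ligand RNA on the high-fat diet. The other members gave no such call: Ltbp1, Ltbp2, Ltbp3, Ltbp4 and Lrrc32 did not pass edgeR's quasi-likelihood test in any of 7 comparisons, although DESeq2 called Ltbp3 for diet and Lrrc32 for genotype. The genes described are these 8, the 3 ligands, the 4 latent TGF-beta binding proteins and Lrrc32, taken by symbol from the 50559 genes of the count files, and all 8 passed the filter on low counts that 16550 genes passed.

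TGF-beta is a family of secreted proteins that restrain growth and inflammation and drive the laying down of matrix. Each ligand is made as a precursor, is cut by a protease, and leaves the cell still wrapped in its own propeptide, which keeps it from its receptors. The propeptide can be tied to a latent TGF-beta binding protein, which anchors the complex in the matrix, or to a membrane protein such as the product of Lrrc32, and integrins or proteases release the ligand from there. In fat, TGF-beta signalling is known for its effects on the formation of fat cells and on fibrosis.

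RNA was taken from the visceral white adipose tissue of mice of the FVB/N strain, in 4 groups of 3 libraries. All mice carried the alphaMHC tTA transgene, in which the promoter of the cardiac alpha myosin heavy chain drives the tetracycline-controlled transactivator in heart muscle, so the wild-type mice here are wild type except for that driver. The transgenic mice carried alphaMHC TGFb in addition and overexpressed TGF-beta 1 in the heart. Control mice ate chow with 17% of its energy from fat and 3.1 kcal/g, and the high-fat diet held 60% of its energy as fat and 5.21 kcal/g. It was begun in mice 8 to 10 weeks old and lasted 2 or 6 weeks, without a record of which duration belongs to which library. An age of 8 to 10 weeks is recorded for the control-diet mice too. The age at tissue collection is not among the values used here, so a difference in age between the diets cannot be told apart from diet. The labels number 3 libraries in each group but do not state that a library stands for its own animal. The p-values therefore reflect the spread among libraries, which may be technical.

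Gene totals lay between 20101240 and 21337312 reads, and levels are given as CPM, the reads of a gene relative to the scaled total of its library. The markers of fat cells (Adipoq, Plin1, Cidec, Fabp4 and Lep) summed to 16900 to 22800 CPM in the 12 libraries. Some libraries stood apart in markers of other tissues. Epithelial markers reached 220 CPM in transgenic control replicate 2 and 27.9 CPM in wild-type control replicate 1, and skeletal muscle markers reached 614 CPM in transgenic control replicate 3 and 422 CPM in wild-type high-fat replicate 3. Liver markers reached 304 CPM in wild-type high-fat replicate 2. Schwann cell markers ran from 6.4 to 81.5 CPM, and 0 of 5 had a diet change above 0 in either genotype, with 0 called by edgeR. In the diet effect averaged over the genotypes edgeR called 17.4% of tested genes. There 0 of 5 epithelial markers had a change above 0 (median log2 change -2.69), and Cdh1, Epcam and Trp63 were called lowered. All 5 liver markers had a change above 0 (median 3.99), and Ahsg, Apoa1 and Gc were called raised. Apoa1 and Gc were at 0 CPM in a control library. The part of these tissues in the member levels was not tested. Markers of heart muscle, where the transgene is driven, summed to at most 14.2 CPM, in transgenic control replicate 2. On the control diet the sums were 2.62 to 14.2 CPM in the transgenic and 0.812 to 2.62 CPM in the wild-type libraries. All 3 tested markers had a difference above 0 there, and edgeR called 0. On the high-fat diet the sums were 0.249 to 2.06 CPM and 1.09 to 3.15 CPM in the same order. The part of heart muscle in the Tgfb1 values was not tested. A gene count cannot tell transgene RNA from that of the endogenous Tgfb1. In bulk tissue, a change in the number of cells of a type and a change in RNA per cell cannot be told apart either.

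Promoter sequences are shown for Tgfb1 and Tgfb2, the ligands that were called with opposite signs in the same comparison. RefSeq (GRCm38.p6, the reference strain, not FVB/N) gave a promoter for 6 of the 8 members, and Tgfb3 and Lrrc32 had no entry. Each window runs 5′ to 3′ from 250 bases before to 50 bases after an annotated start of the gene, and capitals mark the motif matches described after it. For Tgfb2 that start is position 186705989, where the GENCODE gene begins on the minus strand. The RefSeq gene reaches 186709697, so the Tgfb2 distances hold for the start used only.

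Tgfb1, chr7:25686752-25687051, plus strand: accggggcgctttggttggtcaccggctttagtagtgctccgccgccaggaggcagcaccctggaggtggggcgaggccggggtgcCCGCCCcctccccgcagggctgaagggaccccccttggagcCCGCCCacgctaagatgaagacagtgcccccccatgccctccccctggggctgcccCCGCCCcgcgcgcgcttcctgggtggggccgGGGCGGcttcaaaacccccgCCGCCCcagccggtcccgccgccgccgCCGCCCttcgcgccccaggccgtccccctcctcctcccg
Tgfb2, chr1:186705940-186706239, minus strand: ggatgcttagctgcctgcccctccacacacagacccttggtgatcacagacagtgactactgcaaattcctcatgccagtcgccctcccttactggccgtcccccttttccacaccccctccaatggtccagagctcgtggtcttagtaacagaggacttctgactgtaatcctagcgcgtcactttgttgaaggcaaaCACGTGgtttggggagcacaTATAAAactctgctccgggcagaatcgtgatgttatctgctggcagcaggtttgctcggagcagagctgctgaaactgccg

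The Tgfb1 window was 77.0% G or C, more than in 97.6% of the 32851 mouse promoters of the same length, where the median was 52.7%. It held 6 matches to the GC box GGGCGG on either strand and none to the TATA box TATAAA. The Tgfb2 window was 54.3% G or C, more than in 54.5% of promoters, and held 1 TATAAA beginning 31 bases before the start, 1 E-box CACGTG beginning 51 bases before it, and no GC box. Of all promoters, 35.7% held GGGCGG, 13.6% held TATAAA and 7.15% held CACGTG. Both strands were also searched for the cAMP response element TGACGTCA, present in 1.79% of promoters, and the AP-1 site TGANTCA, in 7.81%, and neither window held them. No matched stretch was shared between motifs, and a match is a match of letters only.

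Levels of different genes were compared per kb of exon, in CPM per kb over the union of a gene's exons. Ltbp4 averaged 66.9 CPM per kb over the 12 libraries and ranged from 52.3 to 102.0, and Ltbp3 averaged 51.4 with a range of 35.9 to 69.6. These 2 binding proteins stood above every other member in every library. Tgfb1 followed at 12.3 CPM per kb (9.05 to 16.3), Tgfb3 at 9.19 (6.45 to 12) and Lrrc32 at 7.91 (5.49 to 12), and the ranges of these 3, over all groups, overlapped. Ltbp2 averaged 4.28 CPM per kb (2.51 to 5.87) and Ltbp1 averaged 3.3 (2.62 to 4.3), with ranges that overlapped each other, and the Ltbp2 range reached that of Lrrc32. Tgfb2 was lowest at 1.01 CPM per kb (0.679 to 1.36), and its range overlapped none of the others. With the length of the longest transcript in place of the exon union, Ltbp3 (81.4) stood above Ltbp4 (80.3) and Ltbp1 (5.29) above Ltbp2 (5.18), so those neighbours have no settled order. Tgfb1 averaged 24.0 on that length, with Tgfb3 at 9.19 and Lrrc32 at 8.1, so its distance from these genes also depended on the length used. The positions in the genome, from the mouse GENCODE annotation of GRCm38, are chr7:25687002-25705077 for Tgfb1, chr1:186622792-186705989 for Tgfb2, chr12:86056745-86079041 for Tgfb3, chr17:75005568-75392512 for Ltbp1, chr12:84783212-84876532 for Ltbp2, chr19:5740904-5758532 for Ltbp3, chr7:27305136-27337692 for Ltbp4 and chr7:98489283-98502181 for Lrrc32. Other genes overlapped 12.4% of the exon bases of Tgfb3, 9.3% of Ltbp2, 2.1% of Tgfb2 and 2.0% of Ltbp3, and the strand setting of the counting is unknown here. All of these overlaps were with genes on the opposite strand. A share of exon bases is not a share of reads, and the effect of the overlaps on the counts was not measured.

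**Figure D1:**
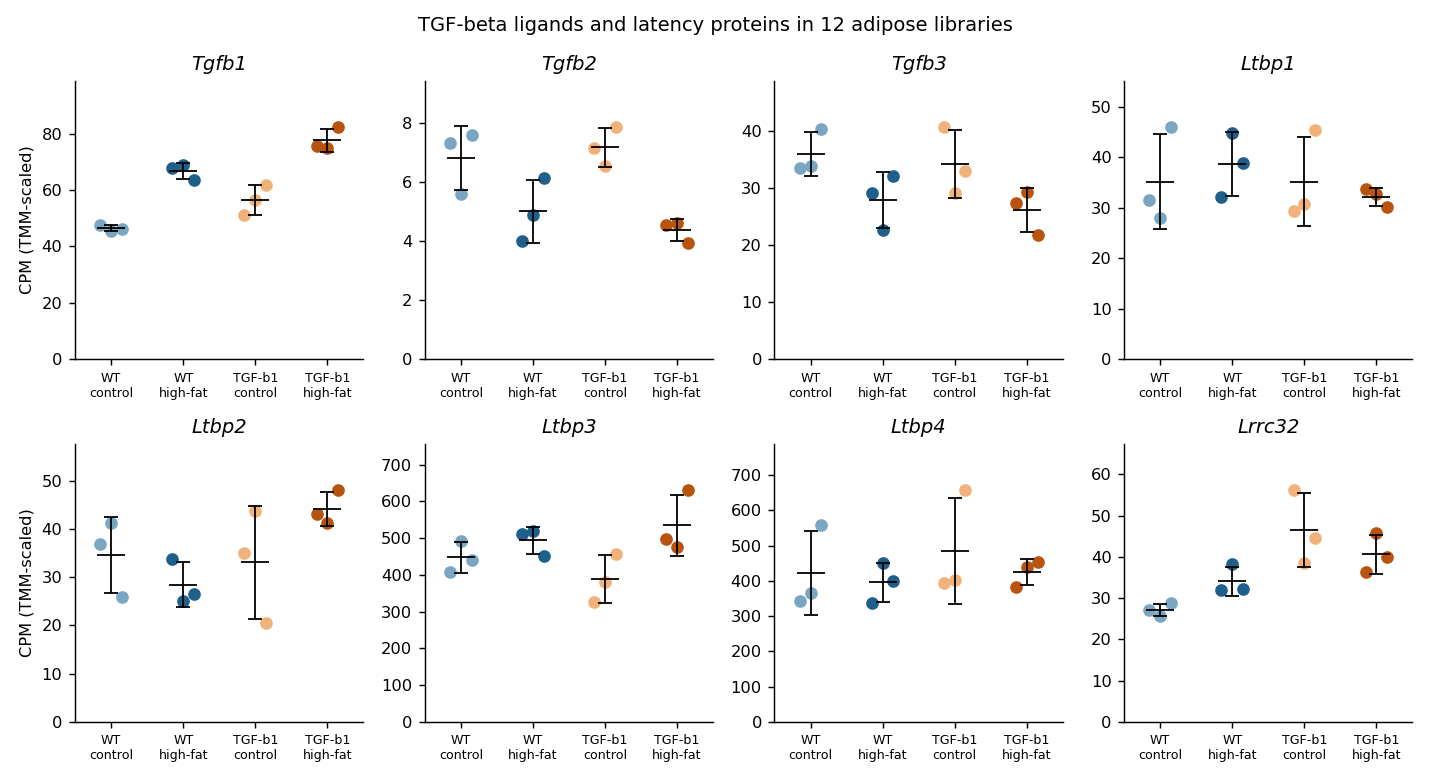
Levels of the 8 members in TMM-scaled CPM (vertical axes, from 0) in the 4 groups, wild type (WT) and transgenic (TGF-b1) on either diet, with 1 point per library and bars for the mean and SD of 3 libraries. Tgfb1 is higher in all 6 high-fat libraries than in all 6 control libraries.

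Tgfb1 encodes the ligand made by most cell types, immune cells, endothelium and fibroblasts among them. Its level was 47.7, 45.6 and 46.2 CPM in the wild-type control libraries and 67.7, 69 and 63.6 CPM in the wild-type high-fat libraries. In the transgenic libraries it was 51.2, 56.5 and 61.8 CPM on the control diet and 75.6, 74.9 and 82.2 CPM on the high-fat diet. All 6 high-fat libraries lay above all 6 control libraries, a separation upward that 3.98% of the 16550 tested genes showed. Tgfb1 rose on the high-fat diet by a log2 change of 0.52 in the wild type (SE 0.09, 95% interval 0.33 to 0.71, edgeR adjusted p = 0.0244) and by 0.46 in the transgenic mice (SE 0.09, 0.27 to 0.65, adjusted p = 0.0106). The authors' deposited table gave 0.53 (SE 0.11, adjusted p = 9.39e-05) for the wild type and 0.46 (SE 0.14, adjusted p = 0.0139) for the transgenic mice. The diet effects of the genotypes differed by -0.07 (transgenic minus wild type, 95% interval -0.34 to 0.2, adjusted p = 0.972), so a difference between genotypes was not resolved. In the wild type, the adjusted p of Tgfb1 exceeded 0.05 in 5 of the 12 fits that left out 1 library: it was 0.087 and 0.0863 without control replicates 1 and 2, and 0.0737, 0.117 and 0.0589 without high-fat replicates 1, 2 and 3. The average over the genotypes was a log2 change of 0.49 (SE 0.06, 95% interval 0.35 to 0.62, edgeR adjusted p = 0.000627), and it passed in all 12 such fits. The transgenic call passed in all 12 as well, but not when only the 6 transgenic libraries were fitted (adjusted p = 0.0523).

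Tgfb2 and Tgfb3 encode the other ligands, which use the same receptors; Tgfb2 binds the signalling receptor well only with the help of the co-receptor betaglycan. Tgfb2 was at 7.31, 5.58 and 7.58 CPM in the wild-type control libraries and at 4.01, 4.88 and 6.12 CPM on the high-fat diet. It was at 7.14, 6.54 and 7.85 CPM in the transgenic control libraries and at 4.55, 4.6 and 3.93 CPM on the high-fat diet. The transgenic diet groups did not overlap and the wild-type groups did, with 1 high-fat library inside the control range. These levels rest on 79 to 174 reads per library. Tgfb2 fell by 0.72 on the log2 scale in the transgenic mice (SE 0.19, 95% interval -1.13 to -0.3, edgeR adjusted p = 0.0377), while its log2 change in the wild type was -0.45 (SE 0.19, -0.86 to -0.04, adjusted p = 0.239). The difference between these diet effects was -0.27 (-0.85 to 0.31, adjusted p = 0.93) and was not resolved. The authors' deposited table gave -0.71 for the transgenic mice (SE 0.24, adjusted p = 0.0363) and -0.44 for the wild type (SE 0.25, adjusted p = 0.354). Over the genotypes Tgfb2 fell by 0.58 (SE 0.13, -0.87 to -0.29, edgeR adjusted p = 0.0124), and passed in all 12 fits that left out 1 library. The transgenic call held in 4 of these 12 fits, those without wild-type control replicate 2 or 3 or wild-type high-fat replicate 1 or 3, and its adjusted p ran from 0.0354 to 0.132 over the 12. It was lost without the 2 libraries highest in epithelial markers (0.0705) or the 2 highest in muscle markers (0.0743).

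Tgfb3 was at 33.6, 33.9 and 40.4 CPM in the wild-type control libraries and at 29.1, 22.6 and 32.2 CPM on the high-fat diet. In the transgenic libraries it was at 40.7, 29.1 and 33 CPM on the control diet and at 27.5, 29.3 and 21.8 CPM on the high-fat diet. The wild-type diet groups did not overlap, and the transgenic groups overlapped by 1 control library. Its log2 change was -0.36 in the wild type (SE 0.16, 95% interval -0.72 to -0.01, edgeR adjusted p = 0.267) and -0.39 in the transgenic mice (SE 0.16, -0.74 to -0.03, adjusted p = 0.157). Over the genotypes Tgfb3 fell by 0.38 (SE 0.12, -0.63 to -0.12, edgeR adjusted p = 0.0429), close to the threshold of 0.05. The fits without 1 library in which it held were those without wild-type high-fat replicate 3, transgenic control replicate 2 or transgenic high-fat replicate 2, and over the 12 its adjusted p reached 0.109. Leaving out both epithelium-rich or both muscle-rich libraries kept it (0.0452 and 0.0436).

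In the average over the genotypes 3 members were called at an adjusted p under 0.05, 1 raised and 2 lowered. Of the tested genes 17.4% were called, 9.43% raised and 7.98% lowered. In the wild type 1 member was called, Tgfb1, against 1.14% of genes called (0.683% raised, 0.453% lowered). In the transgenic mice 2 were called, Tgfb1 raised and Tgfb2 lowered, against 8.73% of genes (5.39% raised, 3.34% lowered). The wild-type diet groups did not overlap for 3 members (Tgfb1, Tgfb3 and Lrrc32), as for 24.9% of genes, and the transgenic diet groups for 3 (Tgfb1, Tgfb2 and Ltbp3), as for 27.8%. The median log2 change of the 8 members was 0.03 for the average diet effect, with -0.02 over all tested genes. The average uses the same libraries as the separate contrasts and is no further evidence for them. Without the 2 libraries highest in epithelial markers the wild-type call of Tgfb1 was lost (adjusted p = 0.0903), as it was without the 2 highest in muscle markers (adjusted p = 0.0537).

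**Figure D2:**
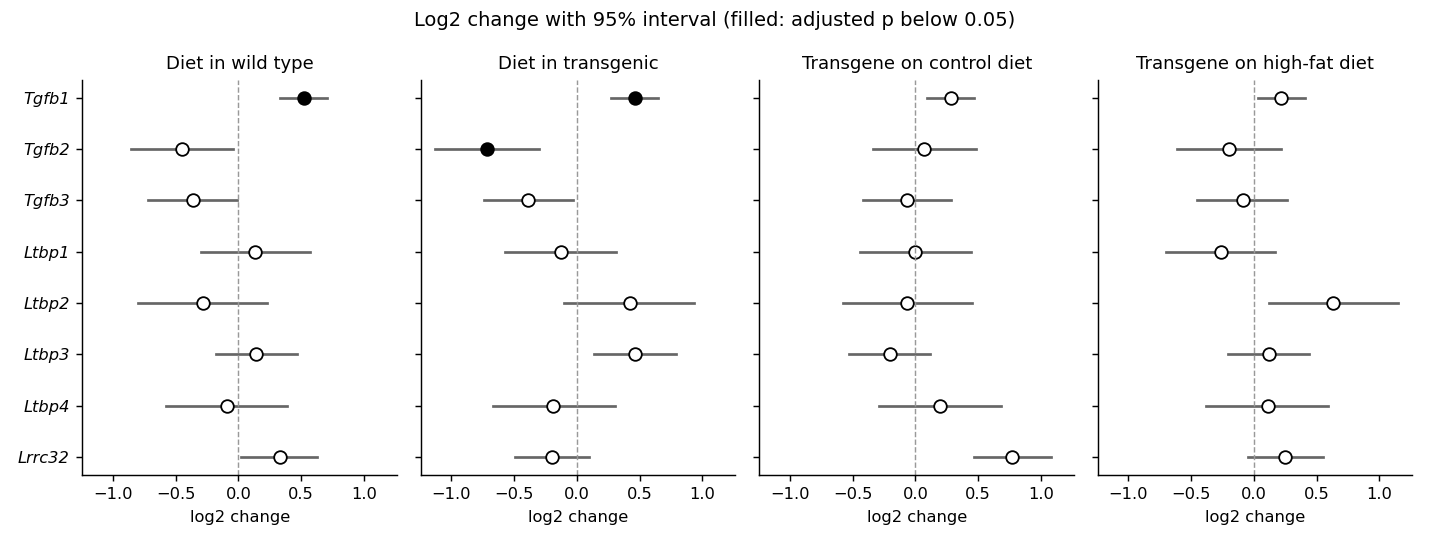
Log2 change with its 95% interval (horizontal axes) for each member in 4 comparisons: high-fat minus control diet in the wild type and in the transgenic mice, and transgenic minus wild type on either diet. Filled points have an edgeR adjusted p under 0.05, and these are Tgfb1 for diet in both genotypes and Tgfb2 for diet in the transgenic mice.

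The composition of the ligand RNA differed between the diets, while its sum depended on the exon length used. Per kb of exon union, the sum of the 3 ligands was 21 ± 1.25 CPM per kb in the wild-type control group and 22.4 ± 1.04 in the wild-type high-fat group (SD, n = 3). It was 22.6 ± 1.44 and 23.9 ± 0.451 in the transgenic control and high-fat groups (SD, n = 3), and the wild-type diet groups overlapped. Per kb of the longest transcript it was 30.1 ± 1.26 and 35.2 ± 0.681 in the wild type and 33.5 ± 1.75 and 38.8 ± 0.404 in the transgenic mice (SD, n = 3), and the diets did not overlap in either genotype. By exon union, Tgfb1 made up 43.9% ± 2.65 of the ligand RNA per kb in the wild-type control group and 59.3% ± 5.05 in the wild-type high-fat group, and 49.8% ± 5.57 and 64.5% ± 4.52 in the transgenic groups (SD, n = 3). The lowest high-fat library was at 54.4% and the highest control library at 53.5%, so the diets did not overlap. Tgfb3 made up 50.5%, 36.8%, 44.7% and 32.4% in the same order, and Tgfb2 between 3.15% and 5.59%. Which of Tgfb1 and Tgfb3 was larger in wild-type control fat depended on the exon length used: with the longest transcript, Tgfb1 was at 60.2% there and at 73.8%, 65.5% and 77.8% in the other groups. The change in these shares follows from the ligand levels above and is not a further test.

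**Figure D3:**
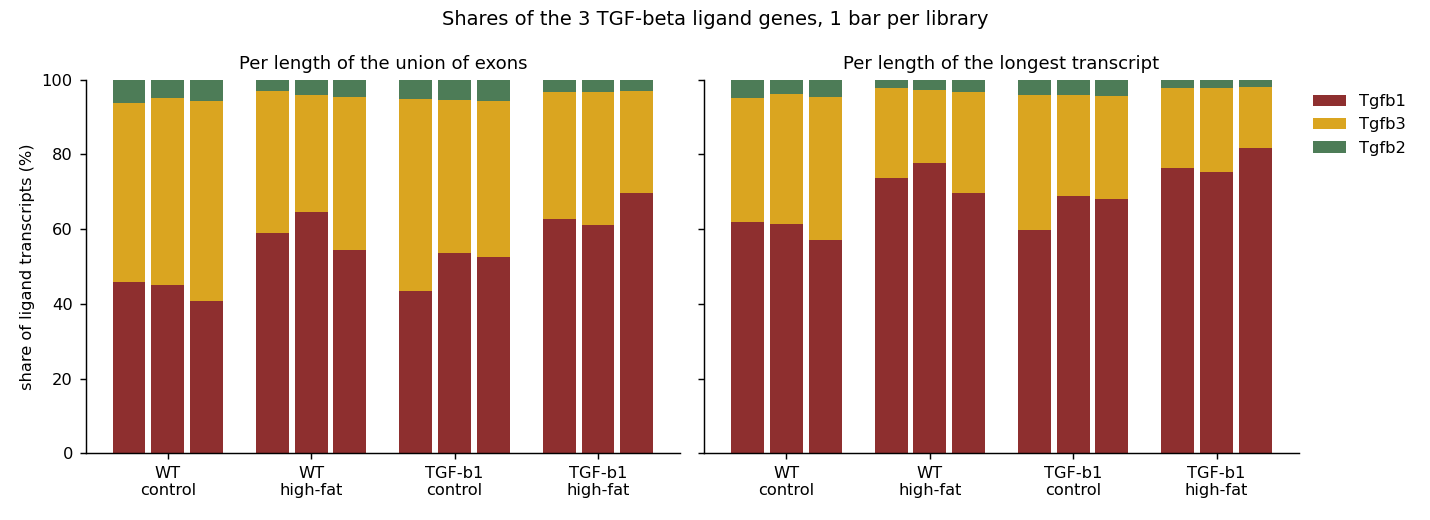
Share of each ligand in the summed CPM per kb of the 3 ligands, in percent (vertical axis), with 1 bar per library, per length of the exon union on the left and of the longest transcript on the right. With the exon union the mean Tgfb1 share is 43.9% and 49.8% in the control groups (wild type, transgenic) and 59.3% and 64.5% in the high-fat groups.

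The latent TGF-beta binding proteins hold the ligands in the matrix. LTBP1, LTBP3 and LTBP4 bind the ligand complexes, and LTBP2 binds fibrillin without carrying a ligand. Ltbp3 was at 409, 492 and 441 CPM in the wild-type control libraries, at 511, 519 and 452 on the high-fat diet, at 326, 381 and 457 in the transgenic control libraries, and at 497, 477 and 631 in the transgenic high-fat libraries. Its transgenic diet groups did not overlap. The log2 change was 0.46 in the transgenic mice (SE 0.15, 95% interval 0.14 to 0.79, edgeR adjusted p = 0.0729), 0.14 in the wild type (SE 0.15, -0.18 to 0.47, adjusted p = 0.657) and 0.3 on average (SE 0.1, 0.08 to 0.53, adjusted p = 0.0651). DESeq2 placed the transgenic and average values past the threshold (adjusted p = 0.0228 and 0.0248), as did the fits without transgenic control replicate 3 (0.0336 and 0.0262) and without both muscle-rich libraries (0.0445 and 0.0318), and limma-voom the average alone (0.0441). The authors' deposited table gave 0.47 for the transgenic mice (SE 0.17, adjusted p = 0.059).

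Ltbp4 was at 342, 365 and 560 CPM in the wild-type control libraries and at 338, 450 and 400 on the high-fat diet. It was at 393, 403 and 658 CPM in the transgenic control libraries and at 384, 440 and 454 on the high-fat diet. The highest library of each control group lay above the other two, and the groups overlapped. Its average log2 change was -0.14 (SE 0.16, 95% interval -0.48 to 0.2, edgeR adjusted p = 0.58). Ltbp1 was at 31.6, 28.0 and 45.9 CPM in the wild-type control group, at 32.1, 44.8 and 38.9 on the high-fat diet, at 29.4, 30.7 and 45.3 in the transgenic control group and at 33.7, 32.6 and 30.1 on the high-fat diet. These groups overlapped too, and the average log2 change was 0.0 (SE 0.14, -0.31 to 0.31, edgeR adjusted p = 0.997). Summed per kb of exon union, Ltbp1, Ltbp3 and Ltbp4 stood at 5.59 ± 0.672 times the ligand sum in the wild-type control group, 5.35 ± 0.717 in the wild-type high-fat group, 5.36 ± 1.25 in the transgenic control group and 5.36 ± 0.636 in the transgenic high-fat group (SD, n = 3), with overlap in every pair of groups. Per kb of the longest transcript the ratio was 5.38 ± 0.665, 4.71 ± 0.473, 4.84 ± 0.969 and 4.58 ± 0.442 in the same order (SD, n = 3). The diets overlapped in each genotype there too.

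Ltbp2 was at 36.8, 41.2 and 25.8 CPM in the wild-type control libraries and at 33.8, 25.1 and 26.5 on the high-fat diet. It was at 35.0, 43.7 and 20.5 CPM in the transgenic control libraries and at 43.2, 41.2 and 48.1 on the high-fat diet. Between the genotypes on the high-fat diet the groups did not overlap, and the log2 difference of transgenic minus wild type was 0.63 (SE 0.24, 95% interval 0.12 to 1.15, edgeR adjusted p = 0.714). The authors' deposited table called this difference, at 0.63 (SE 0.15, adjusted p = 0.0149). The interaction of genotype and diet was 0.7 (SE 0.34, -0.03 to 1.43, edgeR adjusted p = 0.864).

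Lrrc32 encodes GARP, a membrane protein that holds latent TGF-beta on regulatory T cells and platelets and is also expressed by endothelium. It was at 27.1, 25.7 and 28.7 CPM in the wild-type control libraries and at 32.0, 38.2 and 32.1 on the high-fat diet. In the transgenic mice it was at 56.2, 38.6 and 44.6 CPM on the control diet and at 36.3, 45.7 and 39.9 on the high-fat diet. On the control diet every transgenic library lay above every wild-type library. The log2 difference there was 0.77 (SE 0.14, 95% interval 0.47 to 1.08, edgeR adjusted p = 0.109), a 1.71-fold difference. Averaged over the diets it was 0.51 (SE 0.1, 0.3 to 0.73, adjusted p = 0.141), and on the high-fat diet alone 0.25 (SE 0.14, -0.05 to 0.55, adjusted p = 0.763). DESeq2 called the control-diet difference (adjusted p = 0.000386) and the average (adjusted p = 0.00175), and edgeR with no filter on low counts did so as well (0.00443 and 0.0113). The authors' deposited table called it too, with a log2 difference of 0.78 (SE 0.18, adjusted p = 0.00307). The diet changes were 0.33 in the wild type (SE 0.14, 0.02 to 0.63, edgeR adjusted p = 0.243) and -0.2 in the transgenic mice (SE 0.14, -0.49 to 0.1, adjusted p = 0.406), and their difference of -0.52 (SE 0.2, -0.95 to -0.1, adjusted p = 0.813) did not pass.

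For the genotypes, edgeR called 0 of 8 members in each comparison. On the control diet 0.0363% of genes were called, and 2 members, Tgfb1 and Lrrc32, had an unadjusted p under 0.05. The genotypes did not overlap for these 2 members, as for 14.1% of genes. On the high-fat diet 0.0% were called, and Tgfb1 and Ltbp2 had such a p. Their groups did not overlap, as for 14.0% of genes. For the average over the diets 0.0% were called as well, with Tgfb1 and Lrrc32 under 0.05, and for the interaction 0.0%, with Lrrc32 alone. DESeq2 called Lrrc32 on the control diet, Lrrc32 and Tgfb1 (adjusted p = 0.0319) on average, and 0 members on the high-fat diet or for the interaction, and limma-voom called 0 members in all 4. On the high-fat diet DESeq2 gave an adjusted p to only 3074 genes, and a gene without one could not be called. The transgenic minus wild-type difference of Tgfb1 was 0.28 on the control diet (SE 0.09, 95% interval 0.09 to 0.47, edgeR adjusted p = 0.274), 0.22 on the high-fat diet (SE 0.09, 0.03 to 0.41, adjusted p = 0.714) and 0.25 on average (SE 0.06, 0.11 to 0.38, adjusted p = 0.192). In the authors' deposited table the difference was 0.29 (SE 0.14, adjusted p = 0.532) on the control diet and 0.21 (SE 0.11, adjusted p = 0.685) on the high-fat diet.

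Levels of cell type markers moved with several of these genes in some comparisons and against them in others. The mesothelium, the cell layer that covers visceral fat, has the markers Msln, Upk3b, Krt19, Wt1 and Lrrn4. They summed to 466 to 763 CPM in the wild-type control libraries, 295 to 381 in the wild-type high-fat libraries, 489 to 549 in the transgenic control libraries and 98.5 to 297 in the transgenic high-fat libraries. All control libraries lay above all high-fat libraries, and 3 of the 5 markers, Krt19, Upk3b and Wt1, fell in the average diet effect. Transgenic high-fat replicate 3 was lowest of the 12 libraries in these markers, in Tgfb2 and in Tgfb3. The part of the mesothelium in the fall of either ligand was not tested. Macrophage markers (Adgre1, Cd68, Csf1r, Mrc1 and Lyz2) summed to 615 to 787 CPM in the wild-type control and 642 to 768 in the wild-type high-fat libraries, which overlap. In the transgenic mice they were at 468 to 516 CPM on the control and 584 to 890 on the high-fat diet, and all 5 fitted changes were above 0, with a median log2 change of 0.49. EdgeR called 1 of them, Cd68, DESeq2 3 and limma-voom 2, and all 5 had an unadjusted p under 0.05. On the control diet the transgenic macrophage sums lay below the wild-type sums without overlap, the opposite direction to Tgfb1. There 0 of the 5 fitted changes were above 0, with a median log2 difference of -0.33. EdgeR called 0 of them, DESeq2 1 and limma-voom 0, with 3 at an unadjusted p under 0.05. The part of macrophages in the Tgfb1 values was not tested. Endothelial markers (Pecam1, Cdh5, Kdr, Tek and Egfl7) summed to 474 to 582 CPM in the wild-type control libraries and 606 to 721 in the transgenic control libraries. The order of these 2 groups was the same for Lrrc32. Within the transgenic control group, Lrrc32 was highest (56.2 CPM) in replicate 1, which had the lowest endothelial sum, 606 CPM. EdgeR called 0 of the 5 endothelial markers between these groups, with 4 at an unadjusted p under 0.05 and 0 called by DESeq2 or limma-voom, and their part in the Lrrc32 difference was not tested. They were at 644 to 703 CPM and 597 to 790 CPM in the wild-type and transgenic high-fat libraries. In the wild type they thus moved with diet in the same direction as Tgfb1 and Lrrc32 and without overlap: edgeR called 0 of the 5, with 4 at an unadjusted p under 0.05, DESeq2 called 2 and limma-voom 0. Their part in those values was not tested. Of 5 smooth muscle and pericyte markers, 5 had a transgenic minus wild-type change above 0 on the control diet (median log2 0.39). EdgeR called 0 of them. Their sums of 451 to 626 CPM in the wild type and 499 to 784 CPM in the transgenic mice overlapped. The sum of 784 CPM was that of transgenic control replicate 1, the library highest in Lrrc32. The part of these cells in the Lrrc32 values was not tested. Fibroblast and progenitor markers (Pdgfra, Dpt, Pi16, Dpp4 and Col1a1) differed with diet in the transgenic mice without overlap. They summed to 839 to 931 CPM on the control diet and 1160 to 1250 on the high-fat diet. There 3 of 5 changes were above 0 (median log2 0.19), and edgeR called 1, Col1a1. In the wild type the sums of 900 to 1080 and 917 to 1210 CPM overlapped, with 2 of 5 changes above 0. The part of fibroblasts in the member values was not tested. Regulatory T cell markers summed to 6.99 to 15.1 CPM, with Foxp3 and Ctla4 too low to pass the filter, and platelet markers to 18.9 to 36.2 CPM, with Gp9 below the filter.

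**Figure D4:**
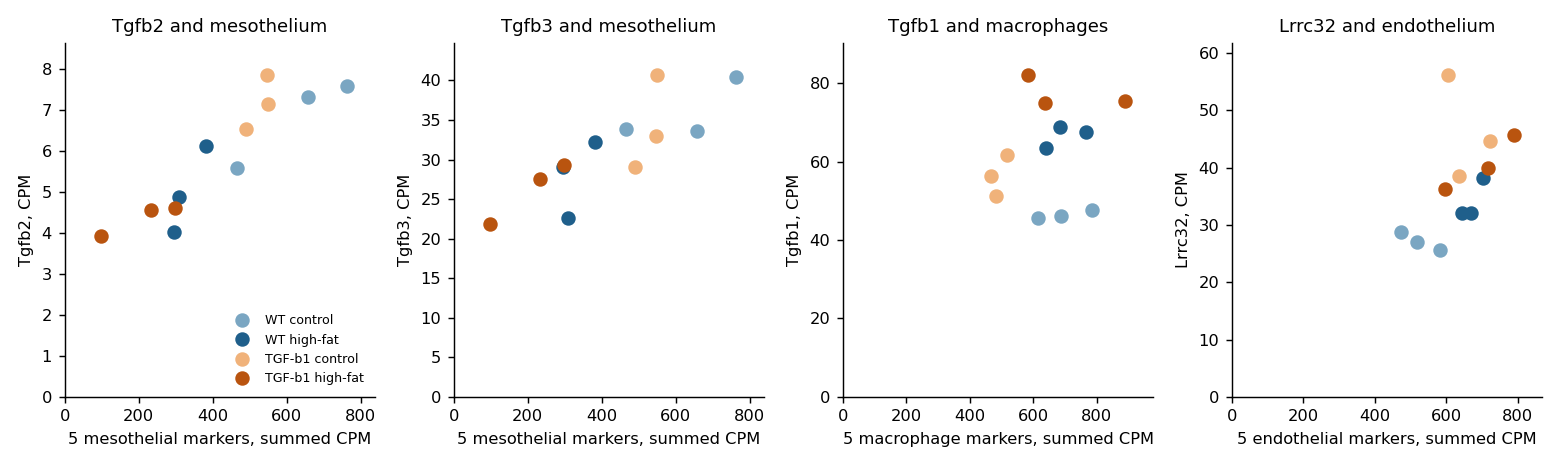
Tgfb2 and Tgfb3 against the summed CPM of 5 mesothelial markers, Tgfb1 against 5 macrophage markers and Lrrc32 against 5 endothelial markers, with 1 point per library coloured by group and all axes from 0. The high-fat libraries hold the lowest mesothelial sums, 98.5 to 381 CPM.

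The other genes of the pathway came from lists of 41 genes, of which 39 were tested. In the average diet effect 6 rose and 4 fell, in the wild type 1 rose and 1 fell, in the transgenic mice 5 rose and 3 fell. Of all tested genes 17.4%, 1.14% and 8.73% were called in these comparisons. In the wild type 13 of the 39 had an unadjusted p under 0.05, as did 2991 of the 16550 tested genes. DESeq2 called 7 of them there, with 868 of 15838 genes, and limma-voom 4, with 699 of 16550. EdgeR called 0 in the transgene comparisons or the interaction. There 2 to 7 genes had an unadjusted p under 0.05, as did 929 to 2032 of the 16550 tested genes. DESeq2 called 1 on the control diet and 1 on average, both in the receptor list, against 252 and 230 of all genes. For limma-voom the number was 0. Of 5 tested integrin chains that activate latent TGF-beta, 1 rose: Itgb1, by 0.35 (SE 0.07, edgeR adjusted p = 0.00613), while Itgb3 was at -0.38 (SE 0.15, adjusted p = 0.104). The list median was -0.13, against -0.02 over all tested genes. Of 8 genes for processing and release, Bmp1, a protease that cuts binding proteins and procollagen, rose by 0.28 (SE 0.08, edgeR adjusted p = 0.0297), and Mmp9, a matrix protease, fell by 1.52 (SE 0.2, adjusted p = 0.000682). Mmp9 was at 16.5 ± 3.71 CPM and 5.38 ± 0.787 CPM in the wild-type control and high-fat groups, and at 17.1 ± 0.884 and 6.38 ± 3.1 in the transgenic groups (SD, n = 3). The median of that list was -0.22. The Bmp1 call was lost in 6 of the 12 fits that left out 1 library, those without replicate 1 or 2 of either control group, wild-type high-fat replicate 2 or transgenic high-fat replicate 3, with adjusted p up to 0.0783.

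Of 9 tested matrix anchors and ligand-binding proteins, 3 rose and 2 fell, with a list median of 0.32. Nrros, the counterpart of Lrrc32 on macrophages and microglia, rose by 0.83 (SE 0.07, edgeR adjusted p = 0.000112), from 21 ± 1.43 to 35.3 ± 3.21 CPM in the wild type and from 20.3 ± 0.997 to 38.0 ± 2.95 CPM in the transgenic mice (SD, n = 3). Aspn, a small matrix proteoglycan that binds TGF-beta, rose by 0.71 (SE 0.12, adjusted p = 0.003). The remaining calls were named after their values were seen: Bgn rose by 0.64 (SE 0.15, adjusted p = 0.0137), Dcn fell by 0.65 (SE 0.12, adjusted p = 0.00494) and Fmod fell by 0.53 (SE 0.16, adjusted p = 0.0387). Bgn, Dcn and Fmod are proteoglycans of the same family that also bind TGF-beta. The Fmod call held in the same 3 of the 12 fits as that of Tgfb3, with adjusted p up to 0.0952, and the Bgn call was lost without both muscle-rich libraries (0.052). Dcn was at 2480 ± 270 and 1710 ± 230 CPM in the wild-type control and high-fat groups and at 2200 ± 397 and 1300 ± 212 in the transgenic groups (SD, n = 3).

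Of 5 receptor genes, 1 fell: Tgfbr3, the co-receptor betaglycan, by 0.38 (SE 0.07, edgeR adjusted p = 0.00567), with Acvrl1 at 0.22 (SE 0.12, adjusted p = 0.215) and a list median of -0.14. The receptor gene Eng was named after its values were seen. Its transgenic minus wild-type difference was 0.77 on the control diet (SE 0.16, edgeR adjusted p = 0.125) and 0.48 on average (SE 0.11, adjusted p = 0.18). The interaction for Eng was -0.6 (SE 0.22, edgeR adjusted p = 0.813). Of 6 genes for Smads, which carry the signal to the nucleus or limit it, and their corepressors Ski and Skil, 0 were called by edgeR, DESeq2 or limma-voom and 2 had an unadjusted p under 0.05. The list median was 0.04, with Skil at -0.28 (SE 0.11, adjusted p = 0.101) and Smad3 at 0.18 (SE 0.07, adjusted p = 0.105). Of 8 target genes 1 rose: Col1a1, a fibrillar collagen, by 0.6 (SE 0.11, edgeR adjusted p = 0.0035), with Col3a1 at 0.52 (SE 0.17, adjusted p = 0.0521) and a list median of 0.23.

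**Figure D5:**
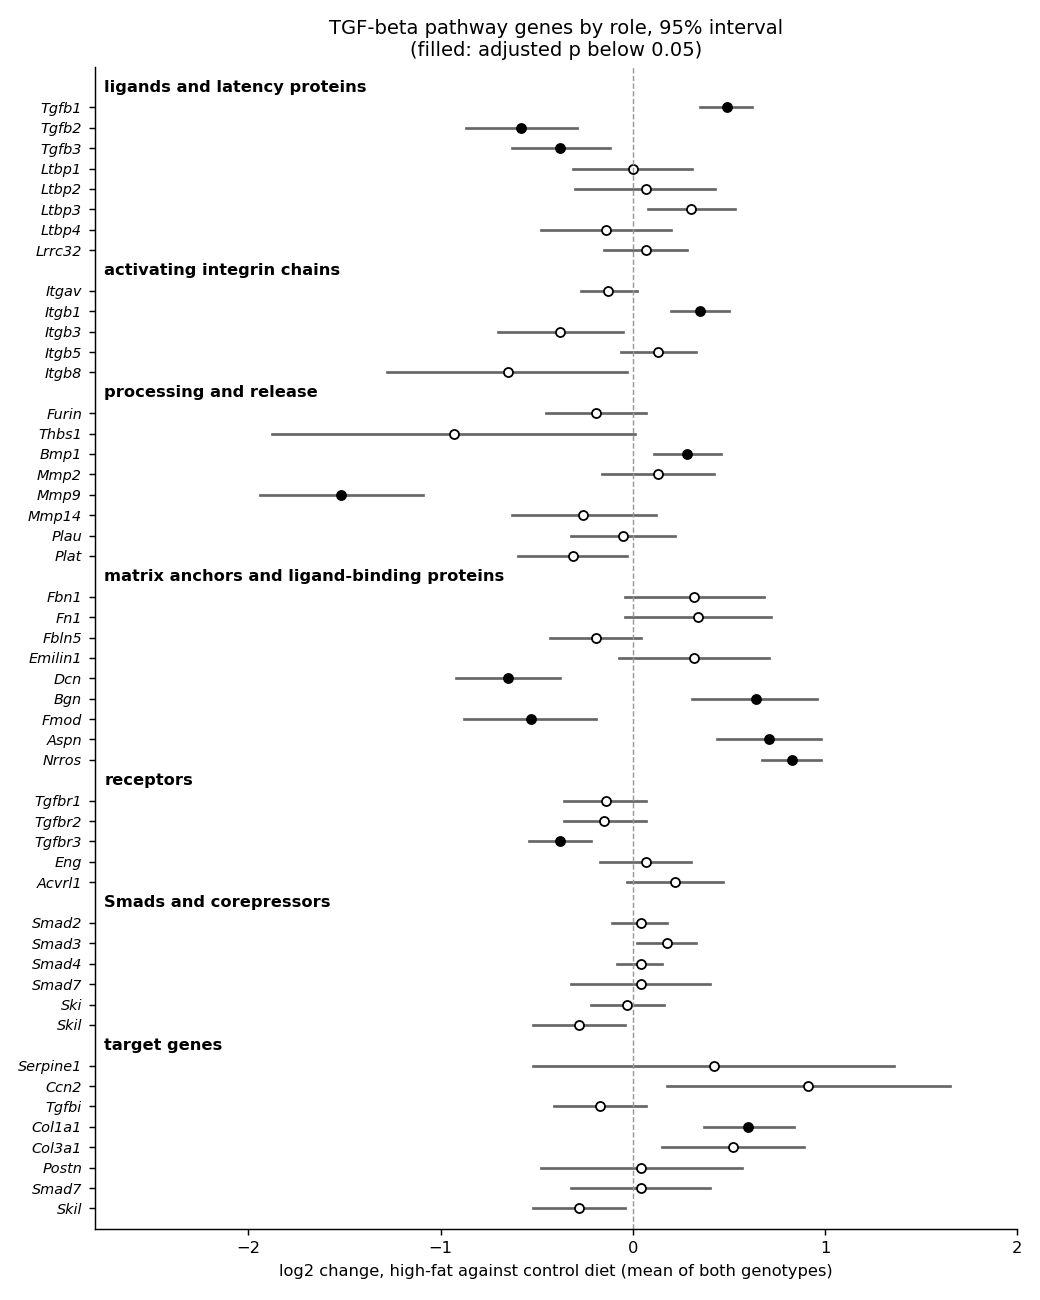
Log2 change on the high-fat diet averaged over the genotypes (horizontal axis), with 95% intervals, for the 8 members and each tested gene of the 6 pathway lists, where Smad7 and Skil stand in 2 lists. Filled points have an edgeR adjusted p under 0.05, and among those of the pathway lists Nrros at 0.83 and Mmp9 at -1.52 lie farthest from 0.

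The genes whose levels were most like those of the called members over the 12 libraries were found by the root mean square difference of log2 CPM after centring each gene on its mean. They were Dnmt1 (0.0868), Zfp532 (0.0997) and Septin11 (0.102) for Tgfb1, whose own spread was 0.283. For Tgfb2 they were Ift122 (0.127), Lcmt2 (0.136) and Snhg18 (0.14), with an own spread of 0.343. For Tgfb3 they were Pigp (0.0763), Cpq (0.105) and Selenok (0.108), with an own spread of 0.266. The same 3 genes came first for each ligand with another prior count in the log.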

How the data were processed

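Counts of reads per gene were deposited as 1 table for each of 12 libraries. Per the submitters' processing notes the reads were handled with HISAT2 2.2.0, HTSeq 2.0 and DESeq2 1.32.0 on the build mm10. For the annotation and the strand setting, nothing was given in the sources used here. The 5 summary lines, 16.8% to 21.0% of a library's total, stayed out of library sizes. The authors deposited tables of their own comparisons with log2 fold changes, their SE and adjusted p-values, which are quoted by name and not used in any fit.

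Genes were filtered with filterByExpr (minimum count 10, minimum total 15) and scaled by TMM. The edgeR quasi-likelihood test (edgeR 4.0.16, limma 3.58.1, R 4.3.3) was fitted as 1 model of 4 group means on all 12 libraries (8 residual degrees of freedom, biological coefficient of variation 20.1%). Contrasts were adjusted by Benjamini-Hochberg over 16550 genes and called at an adjusted p under 0.05. The SE is the log2 change divided by the square root of F. CPM used TMM-scaled totals of all gene rows, and log2 CPM a prior count of 2. Depth was 20101240 to 21337312 gene reads. Procedures were tested on simulated data. Alternatives were DESeq2 1.42.0, limma-voom with quality weights per library, other scaling, no filter, a prior count of 0.5, a replicate block, only the groups compared, another exon length, and libraries left out. Exon lengths came from GENCODE on GRCm38, and Ctgf was matched to Ccn2 through RefSeq synonyms.

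All 8 members are described. Of each pathway list the 2 genes with the smallest p in the average diet effect are named, and for each called member the 3 genes most like it, leaving out predicted genes. The members and lists were chosen with earlier results of these data known.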

Additional observations from a re-analysis of the deposited data

How the results depend on the processing

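The number of members called changed with several choices. In the wild type it fell from 1 to 0 without the libraries highest in epithelial markers and to 0 without those highest in muscle markers, and was 0 to 1 without each library in turn. In the transgenic mice it fell from 2 to 1 with limma-voom (Tgfb2 adjusted p 0.0563), with no filter (0.0565) and without the epithelium-rich libraries, to 0 with only the groups compared (Tgfb1 0.0523, Tgfb2 0.0598), and was 1 to 2 without each library in turn. Without the muscle-rich libraries it stayed at 2, but with Ltbp3 in place of Tgfb2. With 2 libraries left out, a group of 2 is assumed to vary like the others. For the transgene on the control diet it was 1 with DESeq2 and 1 with no filter. For the average transgene effect it was 2 with DESeq2 and 1 with no filter. The average diet effect had 2 to 3 calls without each library (without transgenic control replicate 3, Ltbp3 passed and Tgfb3 did not, at 0.0539) and 4 with DESeq2, limma-voom or without the muscle-rich libraries, where Ltbp3 was added, and Tgfb3 was at adjusted p 0.0654 with library totals.

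Replicate numbers are shared between groups. Deviations from the group mean had a median correlation of -0.024 (-0.111 to 0.265) between same-numbered libraries and 0.006 (-0.258 to 0.187) between the others. The value of 0.265 was that of wild-type high-fat and transgenic control replicate 3, the muscle-rich libraries. By this measure 4 of 12 libraries correlated best with their own number. With the replicate block the transgenic diet count was 1 (Tgfb2 adjusted p 0.0569) and Tgfb3 was at 0.0579 on average. Signs turned for values near 0: the Tgfb1 interaction was 0.01 and the Ltbp4 average diet change 0.0 without transgenic control replicate 3 (ranges without each library -0.13 to 0.01 and -0.2 to 0.0), and the Ltbp1 average diet change was -0.06 to 0.12 without each library (-0.03 without wild-type control replicate 1, -0.05 and -0.04 without transgenic control replicates 1 and 2, -0.01 without transgenic high-fat replicate 1) and -0.07 without the epithelium-rich libraries.

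Over all genes, 188 were called for diet in the wild type, with 868 by DESeq2, 699 by limma-voom, 683 with no filter, 99 with the block, 32 and 23 without the epithelium-rich and muscle-rich libraries, and 0 to 269 without each library. In the transgenic mice 1445 were called, with 2209 by DESeq2, 764 with only the groups compared, 826 without the epithelium-rich libraries and 543 to 1505 without each library. For the transgene on the control diet the 6 calls became 252 by DESeq2, 269 with no filter, 16 without the muscle-rich libraries, 1 without the epithelium-rich libraries, and 0 with library totals, the block or only the groups compared (0 to 58 without each library). On the high-fat diet the 0 calls became 5 by DESeq2, which gave an adjusted p to 3074 genes there, and 5 with no filter. For the interaction the 0 calls became 26 and 53 (0 to 8 without each library), and for the average transgene effect 230 and 145, with 2 by limma-voom (0 to 6 without each library). The 2882 average diet calls became 1865 without the epithelium-rich libraries and 1868 to 2992 without each library. At an unadjusted p under 0.05 there were 1816 genes for the transgene on the control diet, 1114 on the high-fat diet, 929 for the interaction and 2032 for the average transgene effect. For diet there were 2991 such genes in the wild type, 4278 in the transgenic mice and 5358 on average. Tgfb2 had the fewest reads of the members, 79 to 174 per library.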
